A study of Mus musculus with 14 samples.

Results

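The 35 genes described here encode glucose transporters, glycolytic enzymes, lactate transporters and products of the cellular response to low oxygen. They were chosen by symbol, and all 35 were found among the 27179 mouse genes of the count table and passed its filter on low counts. The libraries came from CD4 T cells of C57BL/6 mice, isolated as naive cells, activated by bound antibodies to CD3 and CD28 over 3.5 days of culture, and sorted by flow cytometry before RNA was isolated. Th1 cultures gave 5 libraries. Cultures in Tfh conditions with an antibody that blocks TGF-β, called TfhA, gave 4 libraries, and cultures in Tfh conditions with 5 ng/ml TGF-β, called Tfh5, gave 5. The other cytokines of each culture, the sex and age of the mice, the gate of the sort and whether replicates came from separate mice could not be read from the labels, so p-values measure the spread between these libraries, which may be technical. No Tfh culture with neither TGF-β nor the blocking antibody was analysed here, so Tfh5 and TfhA differ in both agents. The comparison bears on how these genes differ between cultures with TGF-β, cultures with TGF-β blocked and Th1 cultures.

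Glycolysis splits glucose into pyruvate. Activated T cells use it heavily and turn much of the pyruvate into lactate, which leaves the cell through monocarboxylate transporters. HIF-1 is a transcription factor made of HIF-1α and a constant partner, and the prolyl hydroxylases encoded by the Egln genes mark HIF-1α for destruction when oxygen is present. HIF-1 is known to raise the genes of most glycolytic steps together with genes of blood vessel growth, mitochondrial turnover and its own hydroxylases. In effector T cells it is also induced by antigen receptor and mTOR signalling when oxygen is plentiful.

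Library totals ran from 8805921 to 16108059 counts. The labels were checked on defining genes. Tbx21, the Th1 master regulator, averaged 244 CPM (depth-scaled counts) in Th1, 61.6 CPM in TfhA and 1.90 CPM in Tfh5, while Maf, which TGF-β induces in T cells, averaged 19.6, 31.7 and 1419 CPM and Cxcr5, a receptor of Tfh cells, 1.77, 1.95 and 79.3 CPM. Cxcr5 and Bcl6, at 12.3, 16.3 and 105 CPM, were thus low in the TfhA libraries despite their Tfh label. Ifng, the Th1 cytokine, averaged 623, 17.3 and 0.832 CPM, and Il17a, the defining cytokine of Th17 cells, 0.236, 0.428 and 317 CPM, so the Tfh5 libraries also held a Th17 gene at a higher level than Cxcr5 or Bcl6. All 12 CD4 T cell markers were detected and summed to 6364 to 6825 CPM in Th1, 6739 to 7903 CPM in TfhA and 9908 to 10475 CPM in Tfh5. The 6 B cell markers summed to 25.8 to 33.6 CPM in Th1, 17.7 to 29.4 CPM in TfhA and 0.822 to 2.67 CPM in Tfh5; Ebf1 made up most of it in Th1 and TfhA, and Cd79a, Cd79b, Ms4a1, Pax5 and Blnk each averaged under 2 CPM in every group. The 7 granulocyte and mast cell markers summed to 120 to 178, 22.7 to 30.8 and 52.8 to 119.9 CPM, nearly all from Ly6g, with Cpa3 and Mcpt4 at 0. The 6 CD8 T and NK cell markers summed to 9.40 to 35.9 CPM over all libraries, mostly from Cd8b1, with Ncr1 at 0. The 10 monocyte, macrophage and dendritic cell markers summed to 3.29 to 8.57 CPM with Adgre1 and C1qa at 0, and the red cell and platelet markers to at most 1.52 CPM. Mitochondrially encoded genes took 5.91% ± 0.871 of counts in Th1 (SD, n = 5), 5.82% ± 1.30 in TfhA (n = 4) and 8.03% ± 0.594 in Tfh5 (n = 5). The part of these shares and marker sums in the results was not tested. Th1 replicate 1 stood apart with a mitochondrial share of 4.46% and a share of 1.16% for the glycolytic genes, TfhA replicate 4 with a mitochondrial share of 4.07%, and TfhA replicate 5 with a glycolytic share of 0.580%.

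The 35 genes fell in order from Th1 through TfhA to Tfh5 as a share of all counts. They held 1.53% ± 0.0821 of counts in Th1 (range 1.44% to 1.66%), 1.19% ± 0.0735 in TfhA (1.10% to 1.27%) and 0.725% ± 0.0351 in Tfh5 (0.690% to 0.774%), and the groups did not overlap. The 23 genes of glucose uptake, glycolysis, lactate and pyruvate held 0.956% ± 0.117, 0.707% ± 0.0886 and 0.342% ± 0.00817. The other 12 genes, of the hypoxia response, held 0.572% ± 0.0407, 0.481% ± 0.0354 and 0.383% ± 0.0284. For these 12 genes Th1 (lowest 0.501%) and TfhA (highest 0.517%) overlapped. Hif1a alone held 0.299%, 0.285% and 0.239% of counts, the larger part of this share in each group. In bulk RNA, fewer cells expressing a gene and less of its RNA per cell cannot be told apart.

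**Figure D1:**
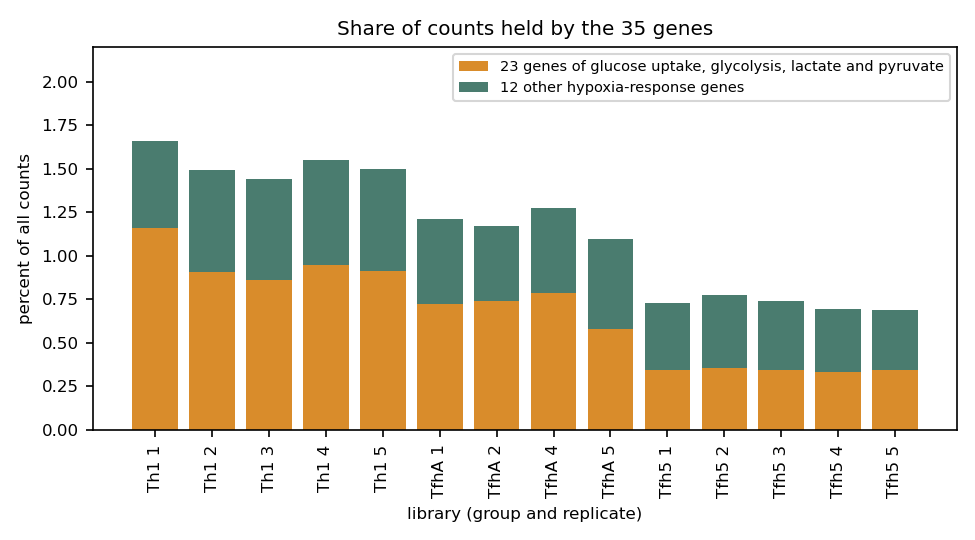
Percent of each library's counts held by the 35 genes, stacked as 23 genes of glucose uptake, glycolysis, lactate and pyruvate and 12 other hypoxia-response genes, for each of the 14 libraries (one bar per library, y axis from 0). The 5 Tfh5 bars reach 0.690% to 0.774%, below the 4 TfhA bars at 1.10% to 1.27% and the 5 Th1 bars at 1.44% to 1.66%.

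Between Tfh5 and TfhA, edgeR's quasi-likelihood test called 27 of the 35 genes lower in Tfh5 and none higher at a Benjamini-Hochberg adjusted p under 0.05. Of all 13075 tested genes, 57.5% passed, 30.1% as lower and 27.4% as higher. None of the 35 was higher by DESeq2 either (0), nor at an unadjusted p under 0.05 (0). Of the 35, 15 were also at least 2-fold lower, against 13.1% of all genes, while 10.6% of all genes were at least 2-fold higher. In 24 every Tfh5 library was below every TfhA library, against 23.4%. Their median log2 fold change was -0.90, and that of all genes was -0.01. Between TfhA and Th1, 22 were lower in TfhA and 3 higher, so 25 of 35 passed, against 44.8% of all genes (21.6% lower and 23.2% higher). In TfhA 4 of the 35 were at least 2-fold lower, against 8.29% of all genes, where 5.37% were at least 2-fold higher. All TfhA libraries were below all Th1 libraries in 17 genes, against 18.7% of all genes, and the median log2 fold change was -0.45, against 0.03 for all genes. Between Tfh5 and Th1, 29 were lower and 2 higher, so 31 passed, against 64.6% of all genes (33% lower and 31.5% higher). Of the 35, 23 were at least 2-fold lower, against 15.3% of all genes, where 12.6% were at least 2-fold higher. The groups did not overlap in 26 lower genes, against 26.5%, and the median log2 fold change was -1.39. The comparisons share libraries and are not independent of one another.

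In 13 of the 35 genes, every Th1 library was above every TfhA library and every TfhA library above every Tfh5 library, against 4.49% of all genes; the reverse order was seen in none of the 35, against 3.57%. TfhA stood above both other groups without overlap in 2 of the 35, Pdk1 and P4ha1, against 8.03% of all genes. The 3 libraries that stood apart were also left out together, a setting chosen after the values were seen. Th1 replicate 1 and TfhA replicate 5 were picked partly or wholly on the glycolytic share, which these genes make up. Leaving them out can therefore shift these genes' changes through the choice itself. Without the 3, 25 genes were lower and 2, Ddit4 and Bnip3l, were higher in Tfh5 than TfhA. In TfhA against Th1 21 were lower and 2 higher, and in Tfh5 against Th1 30 were lower and 2 higher. Of all genes, 52.2%, 32.4% and 63.6% then passed in these comparisons. Calls lost without those libraries were those of Eno3 and P4ha1 between Tfh5 and TfhA and of Tpi1, Bnip3, Egln1, Mif and P4ha1 between TfhA and Th1. Hif1a, Ldha and Ddit4 then passed as lower in TfhA than Th1, and Bnip3l as lower in Tfh5 than Th1. Leaving out 1 library at a time gave 25 to 27 genes lower in Tfh5 than TfhA and 18 to 24 lower in TfhA than Th1. Of all genes, 53.2% to 59.0% and 39.2% to 47.0% passed in these fits in either direction.

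**Figure D2:**
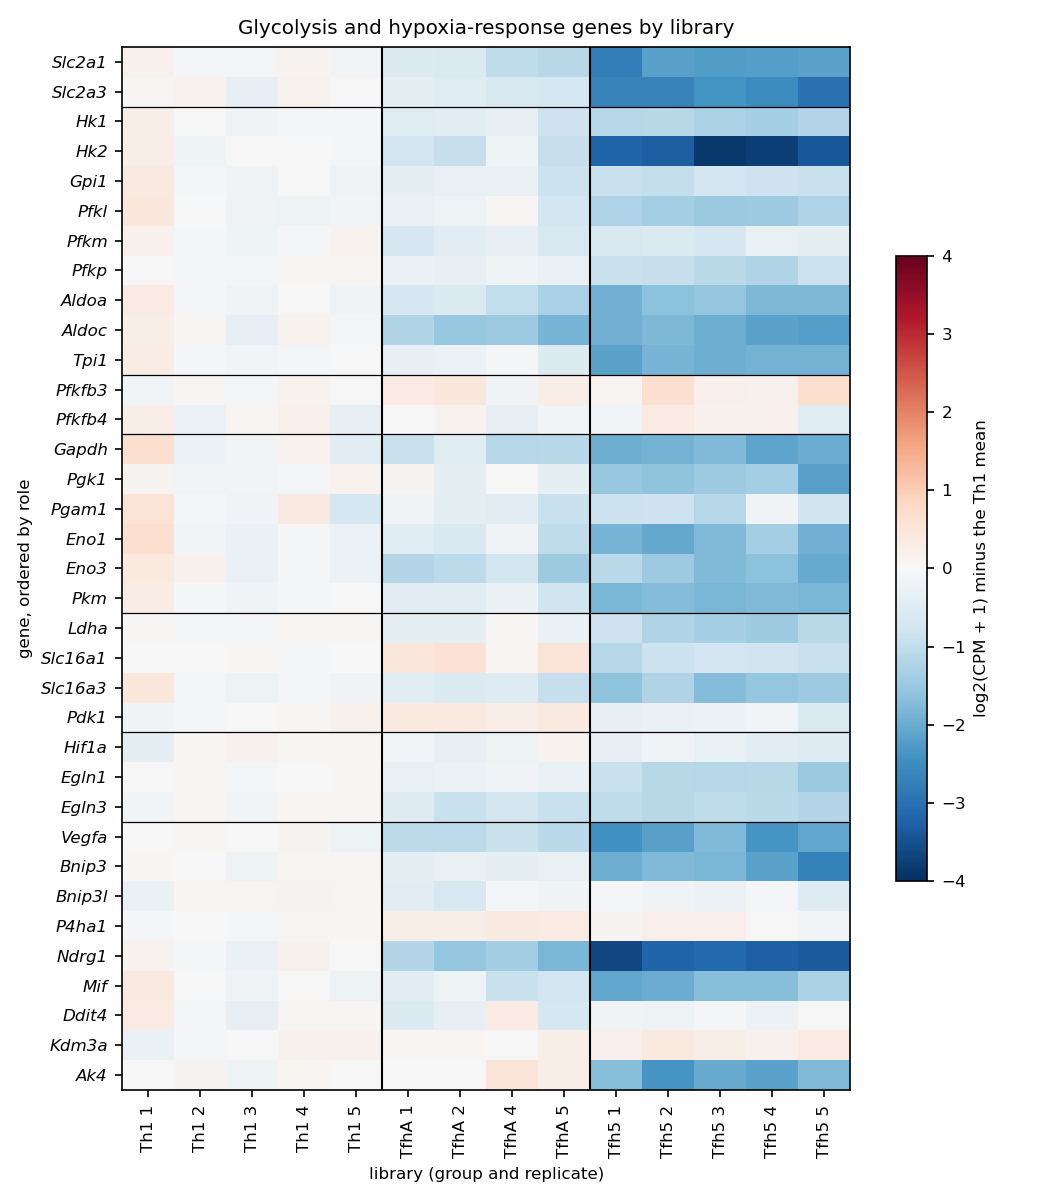
Level of each of the 35 genes (rows, ordered by role, with lines between roles) in each of the 14 libraries (columns), as log2(CPM + 1) minus the mean of the 5 Th1 libraries; blue is lower and red higher than the Th1 mean. The Tfh5 columns are blue for most rows and deepest for Hk2 and Ndrg1, while the rows of Pfkfb3, Pfkfb4, P4ha1, Ddit4 and Kdm3a stay pale.

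Promoter sequence was read for the set, since glycolytic and hypoxia genes share short HIF-1 core motifs. RefSeq windows from 250 bases before to 50 bases after the transcription start (GRCm38.p6) matched 32 of the 35 genes in 51 windows. The cores ACGTG and GCGTG were searched on both strands; the E-box CACGTG, which MYC family and related factors bind, holds ACGTG on both strands and so counts as 2 core matches. At least 1 core was present in 30 of the 32 genes (93.8%), against 67.7% of tested genes with a window, and 2 or more in 23 (71.9%) against 38.7%. An E-box was present in 7 (21.9%) against 11.9%. A gene with several windows has more chances of a match. Counted per window, at least 1 core was present in 80.4% of the 51 windows against 61.8% of the 12610 windows of tested genes. Per window, 2 or more cores were present in 58.8% against 33.6%, and an E-box in 13.7% against 9.99%. The set was chosen as glycolysis and hypoxia-response genes, many of which HIF-1 is known to raise, so an excess of cores is not independent support. The median GC content of the windows was 63.3%, against 60.7% for windows of tested genes, so the windows also differed in base composition. Shown are Hk2 and Bnip3, which fell steeply between TfhA and Tfh5, Ldha, with the most core matches, Slc16a1, which was highest in TfhA, and Tpi1, which fell with no core in its window. They are written 5′ to 3′ on the gene's strand with core matches, on either strand, in capitals.
Hk2, chr6:82774405-82774704, minus strand: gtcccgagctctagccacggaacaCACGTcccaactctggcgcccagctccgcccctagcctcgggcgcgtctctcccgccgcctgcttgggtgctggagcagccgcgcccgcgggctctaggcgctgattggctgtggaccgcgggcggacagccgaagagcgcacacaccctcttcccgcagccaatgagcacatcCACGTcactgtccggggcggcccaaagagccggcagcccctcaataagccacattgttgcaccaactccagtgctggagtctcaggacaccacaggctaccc
Bnip3, chr7:138909457-138909756, minus strand: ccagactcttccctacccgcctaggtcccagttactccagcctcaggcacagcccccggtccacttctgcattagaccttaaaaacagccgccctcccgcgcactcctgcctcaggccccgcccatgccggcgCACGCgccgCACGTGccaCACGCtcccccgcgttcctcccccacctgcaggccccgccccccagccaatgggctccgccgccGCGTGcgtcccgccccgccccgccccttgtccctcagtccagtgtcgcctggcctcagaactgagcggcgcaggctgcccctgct
Ldha, chr7:46845554-46845853, plus strand: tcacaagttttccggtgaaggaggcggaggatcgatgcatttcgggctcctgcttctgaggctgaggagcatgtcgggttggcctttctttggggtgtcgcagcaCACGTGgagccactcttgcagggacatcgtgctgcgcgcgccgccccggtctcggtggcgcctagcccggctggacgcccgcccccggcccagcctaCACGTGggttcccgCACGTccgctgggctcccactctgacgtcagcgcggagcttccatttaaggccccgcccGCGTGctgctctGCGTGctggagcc
Slc16a1, chr3:104638414-104638713, plus strand: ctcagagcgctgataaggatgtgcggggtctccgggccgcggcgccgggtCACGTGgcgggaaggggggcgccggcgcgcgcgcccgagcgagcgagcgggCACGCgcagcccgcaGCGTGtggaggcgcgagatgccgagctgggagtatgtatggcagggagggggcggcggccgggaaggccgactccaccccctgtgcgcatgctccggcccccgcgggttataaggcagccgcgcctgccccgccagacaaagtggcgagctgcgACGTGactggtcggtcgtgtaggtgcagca
Tpi1, chr6:124814109-124814408, minus strand: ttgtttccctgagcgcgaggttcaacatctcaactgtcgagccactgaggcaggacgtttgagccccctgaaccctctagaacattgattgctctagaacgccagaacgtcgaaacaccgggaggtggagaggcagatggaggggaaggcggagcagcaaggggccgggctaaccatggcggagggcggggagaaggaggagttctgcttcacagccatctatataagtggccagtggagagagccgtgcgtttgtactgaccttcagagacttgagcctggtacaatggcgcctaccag
The Ldha window held 7 core matches with 2 E-boxes, those of Bnip3 and Slc16a1 5 each with 1 E-box and that of Hk2 2 matches. The 2 genes with no core in any window were Gpi1 and Tpi1. A match describes these letters only.

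Both glucose transporters fell at each step. Slc2a3 encodes GLUT3, a high-affinity glucose transporter (chromosome 6, 122727809 to 122801640, minus strand of GRCm38). Slc2a3 was at 209, 222, 162, 222 and 198 CPM in the Th1 libraries, 156, 144, 128 and 123 CPM in the TfhA libraries and 31.0, 30.5, 37.7, 33.8 and 24.4 CPM in the Tfh5 libraries. No Tfh5 library reached 40 CPM, and no TfhA library fell under 120 CPM. The log2 fold change was -2.13 ± 0.12 (SE) from TfhA to Tfh5 (adjusted p = 1.17e-13) and -0.56 ± 0.12 from Th1 to TfhA (adjusted p = 0.000347). Slc2a1, which encodes GLUT1, the main glucose transporter of activated T cells (chromosome 4), changed in the same way. Slc2a1 was at 235, 195, 194, 223 and 192 CPM in the Th1 libraries, 142, 139, 102 and 94.7 CPM in the TfhA libraries and 29.8, 45.1, 43.1, 44.1 and 46.3 CPM in the Tfh5 libraries. The 3 groups did not overlap, and Slc2a1 in Tfh5 was 2.87-fold below TfhA and 4.98-fold below Th1.

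Of the 9 enzyme genes of upper glycolysis, 8 were lower in Tfh5 than TfhA, 8 lower in TfhA than Th1 and all 9 lower in Tfh5 than Th1. Over all tested genes the shares called lower were 30.1%, 21.6% and 33%. Hexokinases trap glucose in the cell by phosphorylation; Hk2 is the inducible form and Hk1 the one most tissues keep. Hk2 was at 190.1, 139.5, 155, 159 and 148 CPM in the Th1 libraries, 92.7, 82.3, 141 and 82.2 CPM in the TfhA libraries and 16.1, 15.1, 9.81, 10.7 and 14.2 CPM in the Tfh5 libraries. The TfhA and Th1 ranges overlapped by 1 library, TfhA replicate 4 at 141 CPM, and every Tfh5 library was far under both. Hk2 (chromosome 6, 82725025 to 82774454, minus strand) changed by a log2 fold change of -2.91 ± 0.16 from TfhA to Tfh5, the largest fall among the 35 genes, and by -0.67 ± 0.15 from Th1 to TfhA (adjusted p = 8.06e-14 and 0.000568). Hk1 was at 300.3, 253, 231, 239 and 246 CPM in the Th1 libraries, 181, 189.6, 203 and 144 CPM in the TfhA libraries and 115, 116, 104, 101 and 112 CPM in the Tfh5 libraries. Hk1 fell in smaller steps, 1.42-fold and then 1.64-fold, without overlap at either.

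Aldoa, the most widely expressed aldolase, had the highest CPM among the enzyme genes of the set in the counts as deposited, in which genes with many near-identical copies, such as Gapdh, have uncertain levels. Aldoa was at 3599, 2742, 2574, 2851 and 2599 CPM in the Th1 libraries, 1787, 1903, 1437 and 1166 CPM in the TfhA libraries and 757, 914, 966, 821 and 813 CPM in the Tfh5 libraries. Its groups did not overlap, and it fell by nearly the same factor at each step, 1.83-fold and 1.84-fold, though not with the 3 libraries that stood apart left out, where the second step was the larger (difference of log2 fold changes -0.52, adjusted p = 0.0256). Aldoc, the brain-type aldolase, fell mainly at the first step: it averaged 89.3 ± 13.3 CPM in Th1, 30.8 ± 5.94 CPM in TfhA and 21.5 ± 2.7 CPM in Tfh5. Tpi1, which interconverts the triose phosphates, fell mainly at the second. Tpi1 was at 1119, 859.9, 843, 869.9 and 899.8 CPM in the Th1 libraries, 725, 778, 858 and 628 CPM in the TfhA libraries and 205, 253, 236, 246 and 248 CPM in the Tfh5 libraries. The drop in Tpi1 from TfhA to Tfh5 was 3.15-fold (adjusted p = 1.11e-12), with no overlap. The drop from Th1 to TfhA was 1.23-fold (adjusted p = 0.0222) and did not pass without Th1 replicate 1, TfhA replicate 1 or TfhA replicate 5 (adjusted p = 0.0557 to 0.0908).

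Phosphofructokinase commits sugar to glycolysis, and its 3 genes did not move alike. Pfkp, the platelet form and the most abundant here, averaged 380.4 ± 17.8, 317 ± 14.1 and 191 ± 18.5 CPM in Th1, TfhA and Tfh5. Pfkl, the liver form, averaged 100.2 ± 19.6, 81.8 ± 17.5 and 38.2 ± 3.32 CPM, and fell 2.14-fold from TfhA to Tfh5. From Th1 to TfhA its log2 fold change of -0.29 did not pass (adjusted p = 0.0813); without TfhA replicate 4 it did (adjusted p = 0.0222). Pfkm, the muscle form, was the exception to the second fall. Pfkm was at 27.1, 22.7, 21.5, 23.1 and 26.5 CPM in the Th1 libraries, 14.6, 17.8, 19.2 and 15.0 CPM in the TfhA libraries and 15.2, 15.9, 14.9, 19.4 and 18.0 CPM in the Tfh5 libraries. TfhA and Tfh5 covered the same range, with a log2 fold change of 0.01 ± 0.14 (adjusted p = 0.972), and both were below every Th1 library. Gpi1, the isomerase before phosphofructokinase, was lower by 1.36-fold and then 1.34-fold, with overlap between TfhA and Tfh5 libraries.

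Neither Pfkfb3 nor Pfkfb4, genes of fructose 2,6-bisphosphate, the metabolite that activates phosphofructokinase, passed as lower in any comparison. Pfkfb3 encodes the enzyme form that favours its synthesis. Pfkfb3 was at 78.8, 87.6, 80.5, 94.5 and 86.9 CPM in the Th1 libraries, 107, 115, 78.2 and 104 CPM in the TfhA libraries and 89.5, 133, 99.0, 95.5 and 135 CPM in the Tfh5 libraries. All 3 groups overlapped; only the comparison of Tfh5 with Th1 passed, at 1.29-fold higher (adjusted p = 0.00923). Without TfhA replicate 4, at 78.2 CPM, Pfkfb3 was also higher in TfhA than Th1 (adjusted p = 0.0307). Pfkfb4 was low, at 4.48 to 8.57 CPM over all 14 libraries, and did not pass in any comparison. The other genes of that enzyme family are not among the 35, and Pfkfb2 was chosen after its values were seen. Pfkfb1 averaged 11.5 ± 1.11, 9.26 ± 0.729 and 2.90 ± 1.37 CPM and was 3.17-fold lower in Tfh5 than TfhA without overlap (adjusted p = 3.04e-06). Pfkfb2 averaged 11.5 ± 1.41, 20.1 ± 3.03 and 21.4 ± 3.6 CPM and was higher in TfhA (adjusted p = 0.000107) and in Tfh5 (adjusted p = 5.35e-06) than in Th1.

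**Figure D3:**
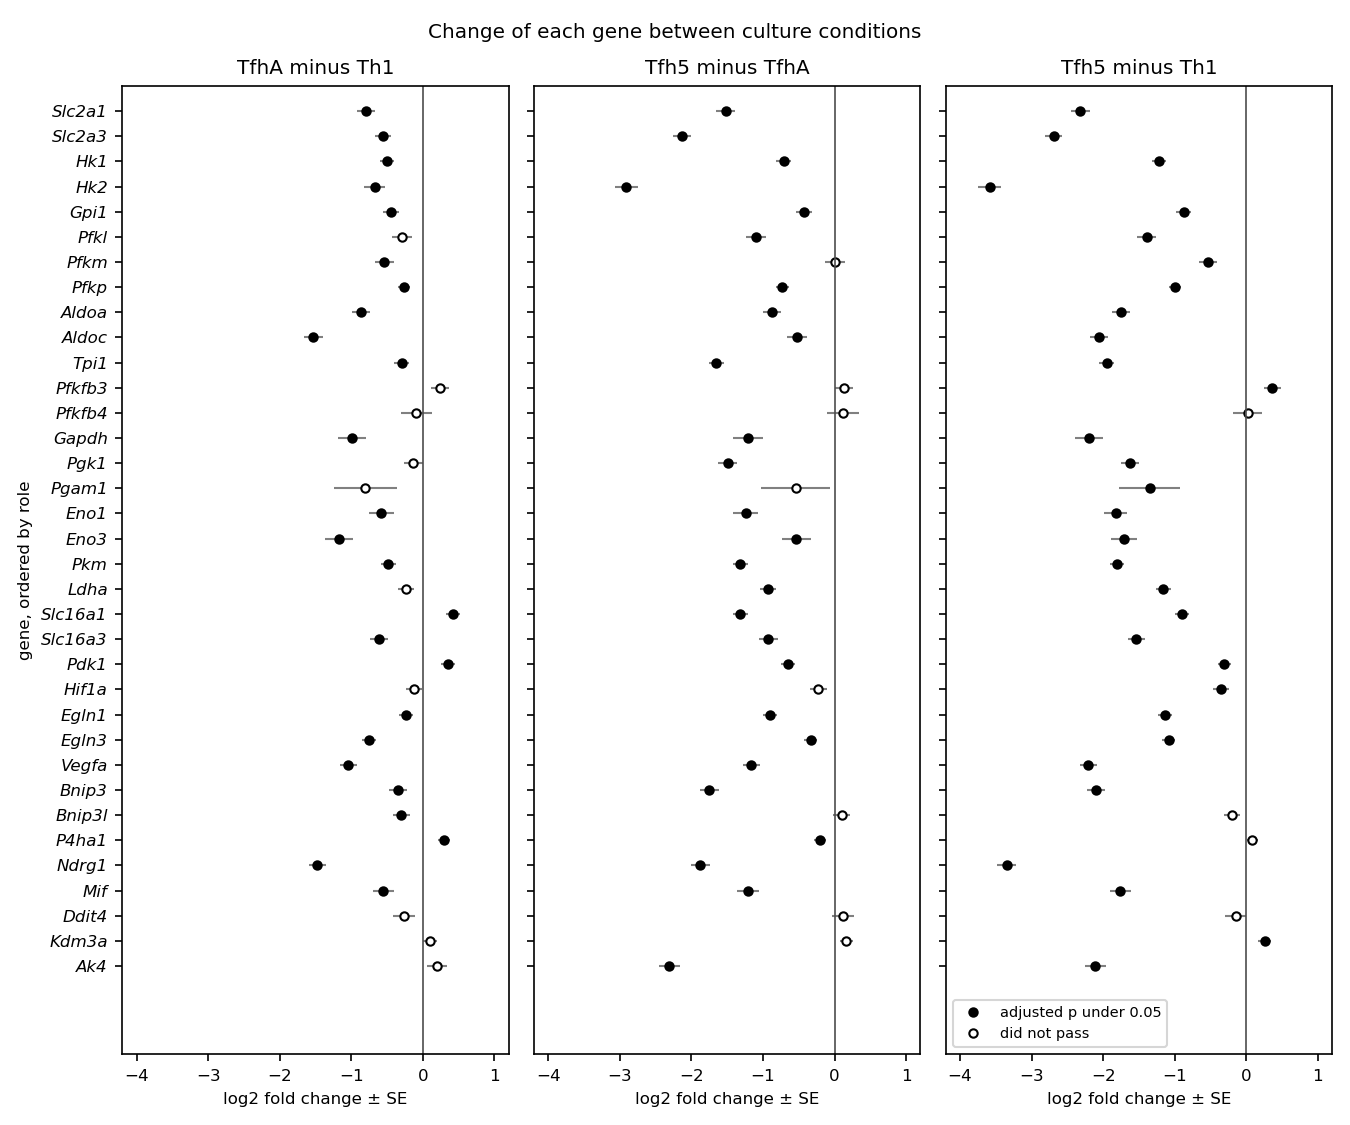
Log2 fold change with its SE (x axis) of each of the 35 genes (y axis, ordered by role) in the 3 comparisons; filled points passed edgeR's quasi-likelihood test at an adjusted p under 0.05 and open points did not. In the middle panel 27 points are filled and left of 0, led by Hk2 at -2.91, Ak4 at -2.31 and Slc2a3 at -2.13, and 8 are open.

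In lower glycolysis 5 of 6 genes fell from TfhA to Tfh5 and 4 of 6 from Th1 to TfhA, and all 6 were lower in Tfh5 than Th1. Over all tested genes the shares called lower were 30.1%, 21.6% and 33%. Pkm encodes pyruvate kinase, which makes pyruvate. Pkm was at 1579, 1232, 1167, 1232 and 1261 CPM in the Th1 libraries, 948, 936, 1079 and 741 CPM in the TfhA libraries and 365, 385, 365, 381 and 361 CPM in the Tfh5 libraries. The Tfh5 libraries lay within 361 to 385 CPM, and Pkm was 2.49-fold lower in Tfh5 than TfhA and 1.40-fold lower in TfhA than Th1, without overlap at either step. Pgk1, which makes ATP from 1,3-bisphosphoglycerate, behaved otherwise. Pgk1 was at 188, 164, 164, 169 and 194 CPM in the Th1 libraries, 189, 136, 179 and 138 CPM in the TfhA libraries and 60.6, 56.3, 63.1, 67.2 and 38.0 CPM in the Tfh5 libraries. Th1 and TfhA overlapped (log2 fold change -0.13, adjusted p = 0.423), and Tfh5 was 2.82-fold below TfhA.

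Eno1, the ubiquitous enolase, averaged 529 ± 156, 354 ± 86.2 and 149 ± 28.8 CPM, with overlap between Th1 and TfhA libraries. Eno3, the muscle enolase, averaged 23.4 ± 4.74, 10.4 ± 2.23 and 7.20 ± 2.03 CPM. The fall of Eno3 from TfhA to Tfh5 (adjusted p = 0.0271) overlapped and did not pass without TfhA replicate 2 or 4 or Tfh5 replicate 3, 4 or 5 (adjusted p = 0.0523 to 0.117). Gapdh, usually one of the most abundant mRNAs of a cell, was listed at only 23.1 ± 7.48, 11.6 ± 2.71 and 5.05 ± 0.543 CPM, and Pgam1 at 2.15 ± 0.987, 1.21 ± 0.454 and 0.843 ± 0.506 CPM. Gapdh was lower in Tfh5 than TfhA by 2.31-fold without overlap, and Pgam1 passed only between Tfh5 and Th1 (adjusted p = 0.00845).

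Several of these genes have many processed copies, and no source used here says how the authors' counting treated reads that align to several places. Of the 50-base windows of the annotated transcripts, 76.4% were also found in transcripts of other genes for Mif, 68.0% for Pgk1, 59.1% for Bnip3, 58.4% for Gapdh (222 other genes), 49.5% for Eno1 and 41.5% for Pgam1. The levels of these 6 are therefore uncertain, and the part of shared sequence in their values was not tested. Smaller shares were found for other genes, among them Gpi1 (24.5%), Bnip3l (24.4%), Pkm (23.7%), Pfkp (15.4%), Ndrg1 (12.3%), Ak4 (10.8%) and Ldha (10.4%). The same limit holds for these genes to a lesser degree, and for ratios that include any gene with shared windows. No window was shared for Slc2a3, Hk2, Aldoc, Eno3, Slc16a1, Slc16a3, Pdk1, Egln1 or Egln3. Of 10 near-identical copies looked for, 4 were in the table: Aldoart1 averaged 48.7, 29.2 and 12.7 CPM in Th1, TfhA and Tfh5, Aldoart2 16.7, 9.30 and 5.12 CPM, Eno1b 6.56, 4.54 and 2.54 CPM, and Gapdh-ps15 at most 0.224 CPM.

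The 4 genes of lactate and pyruvate fate were all lower in Tfh5 than in either other group, but 2 rose from Th1 to TfhA. Among all tested genes 30.1% were lower in Tfh5 than TfhA, 33% lower in Tfh5 than Th1 and 23.2% higher in TfhA than Th1. Ldha turns pyruvate into lactate. Ldha was at 1432, 1322, 1313, 1460.3 and 1448 CPM in the Th1 libraries, 1082, 1073, 1433 and 1167 CPM in the TfhA libraries and 789, 605, 556, 518 and 657 CPM in the Tfh5 libraries. Every Tfh5 library was below every other library (1.90-fold below TfhA). From Th1 to TfhA Ldha did not pass (log2 fold change -0.23, adjusted p = 0.0966), though it did without TfhA replicate 4 (adjusted p = 0.0191) and without Tfh5 replicate 1 (0.0463). Slc16a1 encodes MCT1, a lactate transporter that works in both directions. Slc16a1 was at 117, 114, 122, 112 and 115 CPM in the Th1 libraries, 158, 175, 121 and 166 CPM in the TfhA libraries and 52.2, 62.9, 67.4, 66.7 and 62.1 CPM in the Tfh5 libraries. It was 1.34-fold higher in TfhA than Th1 (adjusted p = 0.00150), with 1 TfhA library inside the Th1 range, and 2.49-fold lower in Tfh5 than TfhA.

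Slc16a3 encodes MCT4, the lactate exporter of highly glycolytic cells, and averaged 187 ± 34.3, 122 ± 17.6 and 64.5 ± 9.34 CPM, falling at both steps without overlap. Pdk1 encodes a kinase that shuts off pyruvate dehydrogenase. Pdk1 was at 132, 136, 143, 149.8 and 163 CPM in the Th1 libraries, 189.8, 189, 174 and 184 CPM in the TfhA libraries and 115, 120.3, 121, 133 and 95.7 CPM in the Tfh5 libraries. All 4 TfhA libraries were above all others: Pdk1 rose 1.27-fold from Th1 to TfhA (adjusted p = 0.00409) and fell 1.57-fold from TfhA to Tfh5 (adjusted p = 2.11e-06).

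Among the genes of HIF-1 and its hydroxylases, the transcript of the factor itself moved least. Hif1a was at 2320.1, 3188, 3402, 3219 and 3122 CPM in the Th1 libraries, 2782, 2399, 2639.7 and 3367 CPM in the TfhA libraries and 2383, 2751, 2477, 2242 and 2117 CPM in the Tfh5 libraries. The groups overlapped, and the log2 fold change was -0.22 ± 0.12 from TfhA to Tfh5 (adjusted p = 0.10; 0.0496 without TfhA replicate 2), -0.13 from Th1 to TfhA (adjusted p = 0.401; 0.0221 with the 3 libraries that stood apart left out) and -0.35 ± 0.11 from Th1 to Tfh5 (adjusted p = 0.00710). HIF-1α is controlled mainly as a protein, which was not measured. Egln3 encodes the prolyl hydroxylase PHD3, itself induced by HIF-1. Egln3 was at 1196, 1381, 1196, 1363 and 1379 CPM in the Th1 libraries, 901, 708, 776 and 703 CPM in the TfhA libraries and 645, 596, 638, 616 and 575 CPM in the Tfh5 libraries. It fell 1.69-fold and then 1.26-fold, without overlap. Egln1, which encodes PHD2, the main oxygen sensor, averaged 253 ± 9.76, 215 ± 9.38 and 115 ± 16.9 CPM, and so fell mostly from TfhA to Tfh5. Its smaller fall from Th1 to TfhA (adjusted p = 0.0480) did not pass in 10 of the 14 fits that left out 1 library (adjusted p = 0.0525 to 0.111).

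The other 9 hypoxia-response genes were divided: 6 fell from TfhA to Tfh5 and 3 did not pass. Among all tested genes 30.1% were lower at this step. Ndrg1 encodes a stress-response protein that hypoxia strongly induces (chromosome 15, 66929318 to 66969640, minus strand). Ndrg1 was at 311, 270.3, 236, 319 and 277 CPM in the Th1 libraries, 124, 96.5, 107 and 78.3 CPM in the TfhA libraries and 21.6, 29.4, 32.0, 28.6 and 27.1 CPM in the Tfh5 libraries. Its groups stood apart at each step, with log2 fold changes of -1.47 ± 0.13 and -1.88 ± 0.13 (adjusted p = 7.98e-10 and 4.93e-12) and a level 10.2-fold lower in Tfh5 than Th1. Vegfa, the vascular growth factor, followed the same steps. Vegfa was at 80.8, 86.5, 82.6, 87.3 and 70.4 CPM in the Th1 libraries, 38.6, 38.5, 43.4 and 38.0 CPM in the TfhA libraries and 14.5, 17.2, 23.2, 14.9 and 18.5 CPM in the Tfh5 libraries. It fell 2.06-fold and 2.24-fold, and its groups did not overlap.

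Ak4, a mitochondrial adenylate kinase, changed only at the second step. Ak4 was at 32.4, 35.8, 29.3, 34.5 and 32.7 CPM in the Th1 libraries, 32.6, 32.3, 47.4 and 39.6 CPM in the TfhA libraries and 9.43, 5.61, 7.36, 6.64 and 9.04 CPM in the Tfh5 libraries. Th1 and TfhA overlapped (adjusted p = 0.251), and Tfh5 was 4.95-fold below TfhA (log2 fold change -2.31 ± 0.15, adjusted p = 2.56e-12). Bnip3 encodes a receptor for the removal of mitochondria. Bnip3 was at 109.6, 107, 94.2, 112 and 108 CPM in the Th1 libraries, 80.9, 85.2, 81.4 and 86.9 CPM in the TfhA libraries and 26.8, 30.2, 29.3, 23.1 and 15.4 CPM in the Tfh5 libraries. It fell 3.36-fold from TfhA to Tfh5; the fall from Th1 to TfhA (adjusted p = 0.0309) did not pass without Th1 replicate 4 or 5 or TfhA replicate 1 or 4 (adjusted p = 0.0506 to 0.0733). Bnip3l, the related receptor NIX, averaged 159.6 ± 16.5, 129 ± 24.4 and 139 ± 17.1 CPM. It did not pass between Tfh5 and TfhA; its fall from Th1 to TfhA (adjusted p = 0.0406) failed in 6 of the 14 fits that left out 1 library (adjusted p up to 0.168), and it passed as lower in Tfh5 than Th1 without Th1 replicate 1 (adjusted p = 0.0415).

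Mif, a cytokine gene that HIF-1 is known to raise, averaged 130.4 ± 20.9, 88.9 ± 19.7 and 38.4 ± 8.95 CPM and fell at both steps. Its Th1 and TfhA libraries overlapped, and its fall from Th1 to TfhA did not pass with the 3 libraries that stood apart left out (adjusted p = 0.291). P4ha1, a collagen prolyl hydroxylase subunit, averaged 149 ± 5.10, 182 ± 8.16 and 158 ± 14.1 CPM and was 1.23-fold higher in TfhA than Th1 (adjusted p = 0.00638; 0.101 with the same 3 libraries left out). Its fall of 1.15-fold to Tfh5 (adjusted p = 0.0392) did not pass in 9 of the 14 fits that left out 1 library (adjusted p = 0.0525 to 0.108), nor with mitochondrial genes left out of scaling (adjusted p = 0.0797). Kdm3a, a histone demethylase, was 1.2-fold higher in Tfh5 than Th1 (adjusted p = 0.0130). Ddit4, an inhibitor of mTORC1, averaged 138 ± 22.4, 115 ± 40.3 and 125 ± 7.59 CPM and did not pass; without TfhA replicate 4, at 173 CPM, it was lower in TfhA than in Th1 (adjusted p = 0.00114) and than in Tfh5 (adjusted p = 0.00956).

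**Figure D4:**
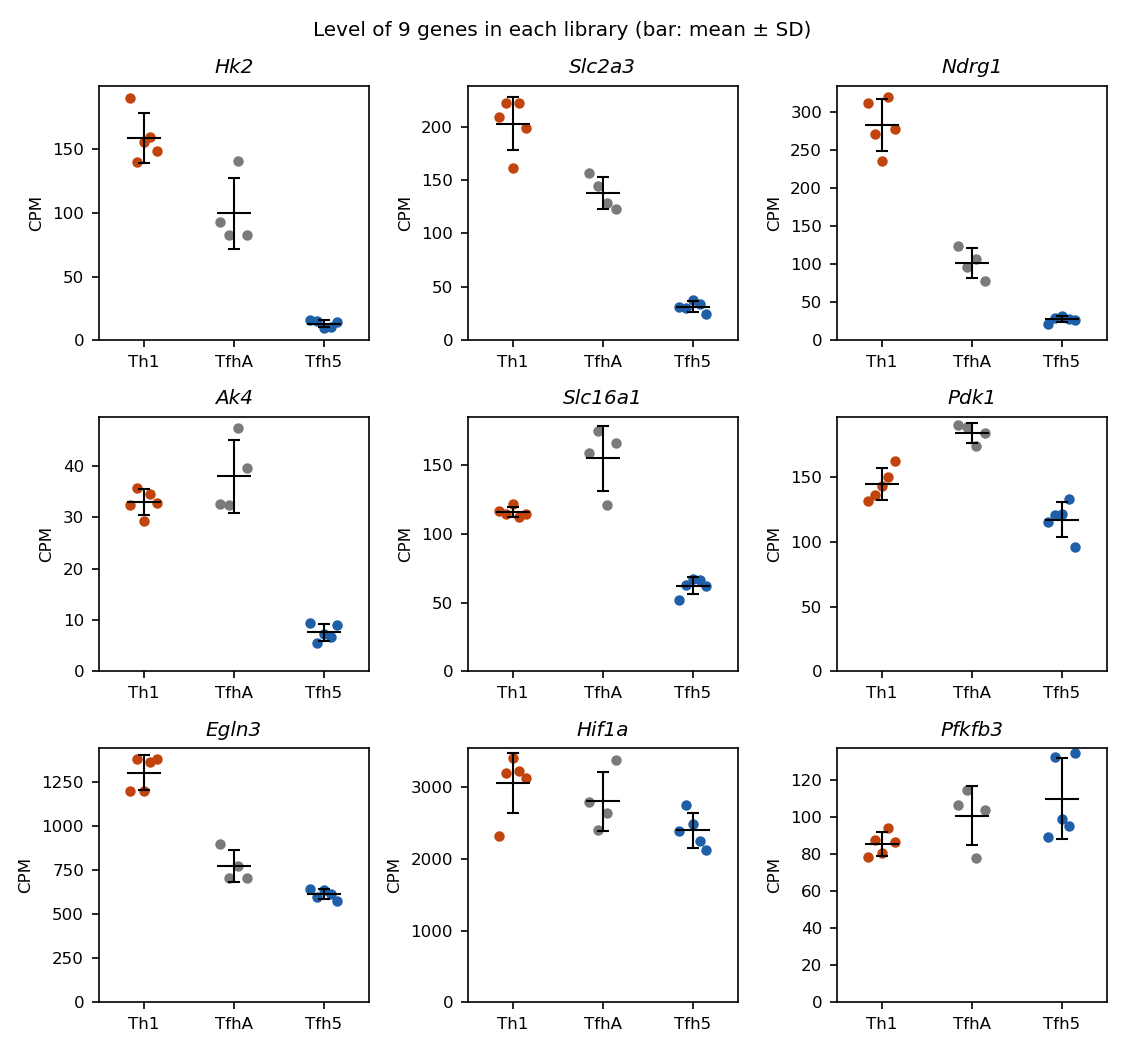
CPM (y axis, from 0) of 9 of the genes in each library of Th1, TfhA and Tfh5 (points), with the mean ± SD of each group (bars). Hk2, Slc2a3, Ndrg1 and Ak4 are lowest in Tfh5, Slc16a1 and Pdk1 are highest in TfhA, Egln3 falls mostly from Th1 to TfhA, and the groups overlap for Hif1a and Pfkfb3.

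The log2 fold change of the second step, TfhA to Tfh5, was set against that of the first, Th1 to TfhA. This signed difference was tested as a contrast in the same edgeR fit, chosen after the values were seen. Both steps share the TfhA libraries. A rise at the first step adds to the difference, as for Pdk1, Slc16a1 and P4ha1, so a more negative second step need not be the larger. The second step was more negative in 16 of the 35 genes, against 24.8% of all genes, and more positive in 2, against 21.5%. The difference of log2 fold changes was -2.51 ± 0.24 (SE) for Ak4, -2.24 ± 0.25 for Hk2, -1.74 ± 0.17 for Slc16a1, -1.58 ± 0.20 for Slc2a3, -1.40 ± 0.22 for Bnip3, -1.36 ± 0.22 for Pgk1, -1.36 ± 0.18 for Tpi1 and -1.0 ± 0.16 for Pdk1. For Aldoa (-0.01 ± 0.22), Vegfa (-0.12 ± 0.21) and Ndrg1 (-0.40 ± 0.22) the steps did not differ by the test, though Ndrg1 passed without TfhA replicate 5 (adjusted p = 0.0276), and with the 3 libraries that stood apart left out Aldoa and Ndrg1 both passed (adjusted p = 0.0256 and 0.0481). The 2 genes with the larger fall at the first step were Aldoc (1.0 ± 0.24, adjusted p = 0.00158) and Egln3 (0.43 ± 0.16, adjusted p = 0.0357); neither passed with the 3 libraries left out (adjusted p = 0.0555 and 0.127). The same setting ended the calls of Ldha, P4ha1 and Pfkp (adjusted p = 0.118 to 0.203), and Slc16a3, Eno1, Bnip3l and Ddit4 then passed, the last pair as more positive at the second step. Egln3 did not pass in 7 of the fits that left out 1 library, nor did Mif in 10, Slc2a1 without TfhA replicate 1 or 2 (adjusted p = 0.0833 and 0.0667) or Pfkl without TfhA replicate 4 (adjusted p = 0.0729).

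Ratios of related genes within a library need no scaling between libraries. For 10 pairs in 3 comparisons, 30 exact two-sided permutation tests were run on log2 ratios of counts. The ratio of Hk2 to Hk1, per kilobase of exon, was 0.893 ± 0.0715 in Th1, 0.790 ± 0.155 in TfhA and 0.171 ± 0.0264 in Tfh5, a 4.58-fold fall from TfhA to Tfh5 without overlap (exact p = 0.00794, the smallest the design allows, adjusted p = 0.0170). The ratio of Bnip3 to Bnip3l was 1.15 ± 0.165, 1.13 ± 0.227 and 0.305 ± 0.0588, a 3.72-fold fall at the same step with the same p-values. The ratio of Pfkm to Pfkl rose 2.11-fold, from 0.415 ± 0.0636 in TfhA to 0.877 ± 0.133 in Tfh5 (exact permutation p = 0.00794).

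From Th1 to TfhA, Slc16a1 gained on Slc16a3 by 2.01-fold, from 0.764 ± 0.124 to 1.56 ± 0.395 per kilobase, and all 4 TfhA libraries were above all 5 Th1 libraries. Egln3 to Egln1 went down from 6.95 ± 0.387 in Th1 to 4.87 ± 0.674 in TfhA and up again to 7.30 ± 0.864 in Tfh5, without overlap at either step. Aldoc to Aldoa and Eno3 to Eno1 also went down and up again, each passing at both steps, while Pfkfb4 to Pfkfb3 passed in no comparison (adjusted p = 0.176 to 0.992 by the exact permutation test). In all, 7 ratios passed between Tfh5 and TfhA, 4 between TfhA and Th1 and 5 between Tfh5 and Th1. In the 2 comparisons with TfhA, leaving out a library of the groups compared leaves fewer regroupings and a larger smallest p. None passed between TfhA and Th1 without any one Th1 library. Between Tfh5 and TfhA none passed without Tfh5 replicate 2, 3, 4 or 5, and 4 passed without TfhA replicate 2. Between Tfh5 and Th1 the smallest p stays at 0.00794 with 1 library left out. There 3 passed without Tfh5 replicate 3 or 4.

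**Figure D5:**
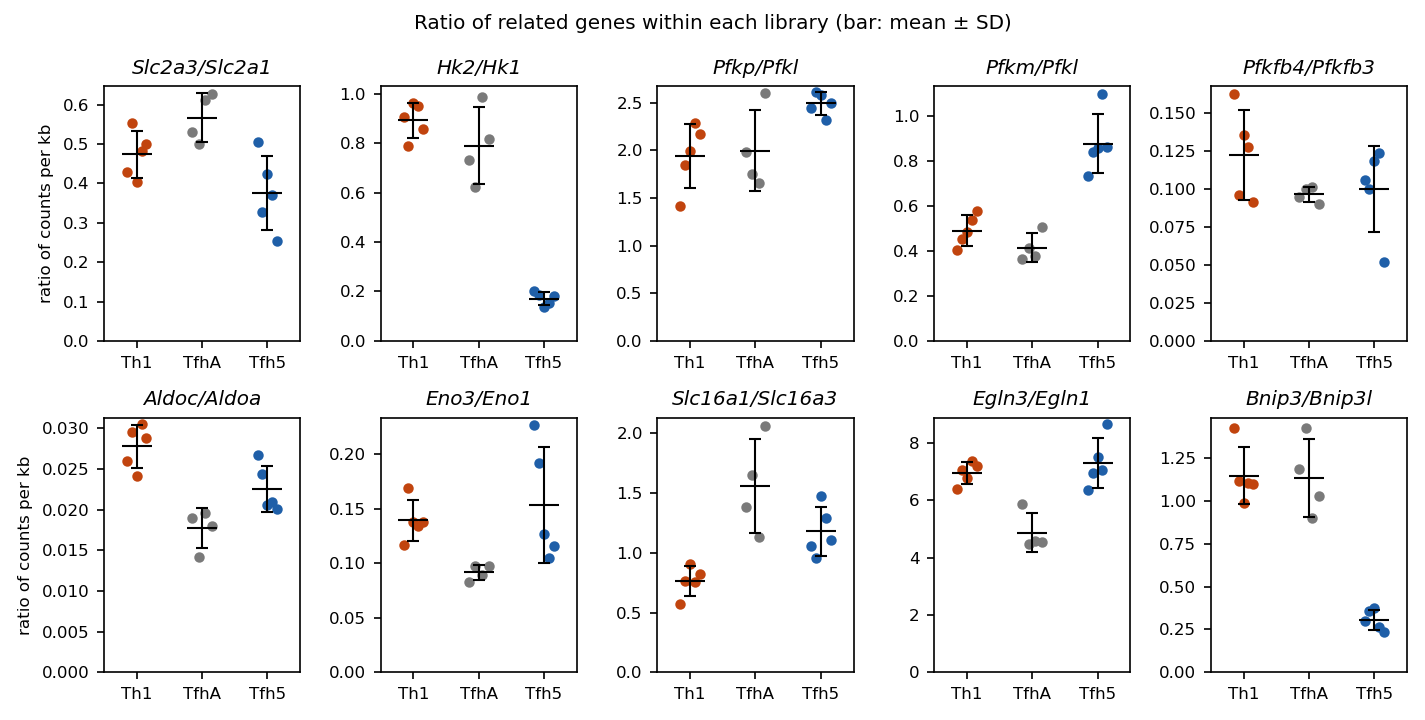
Ratio of the counts per kilobase of exon of 10 pairs of related genes (y axes, from 0) in each library of Th1, TfhA and Tfh5 (points), with the mean ± SD of each group (bars). Hk2/Hk1 and Bnip3/Bnip3l are lowest in Tfh5 without overlap, Pfkm/Pfkl is highest in Tfh5, and Slc16a1/Slc16a3 is higher in all 4 TfhA than in all 5 Th1 libraries.

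Levels were also set between genes per kilobase of all annotated exons. That length can exceed the expressed transcript, and shared sequence makes some levels uncertain, so the order is approximate. Aldoa led in Th1 at 987 CPM per kilobase, followed by Hif1a at 517, Egln3 at 490, Ldha at 421, Tpi1 at 334 and Pkm at 259. In Tfh5 the order was Hif1a at 406, Aldoa at 293, Egln3 at 231 and Ldha at 189, with Tpi1 at 86.3 and Pkm at 74.2. The glucose transporters were at 59.2 for Slc2a1 and 28.0 for Slc2a3 in Th1, and at 11.9 and 4.35 in Tfh5.

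Other genes of the same pathways were taken from lists drawn by function. The shares to set beside every list are those of all tested genes. Of these, 30.1% were lower and 27.4% higher in Tfh5 than TfhA. In TfhA against Th1 they were 21.6% and 23.2%, and in Tfh5 against Th1 33% and 31.5%. Of 32 other hypoxia-response genes tested, 17 were lower and 8 higher in Tfh5 than TfhA (median log2 fold change -0.83), 19 lower and 3 higher in TfhA than Th1 (median -0.46) and 23 lower and 6 higher in Tfh5 than Th1 (median -1.34). P4ha2, another collagen prolyl hydroxylase subunit, averaged 29.7 ± 3.20, 13 ± 2.87 and 2.15 ± 0.698 CPM. Stc2, a secreted glycoprotein, averaged 22.2 ± 2.2, 12 ± 1.55 and 0.729 ± 0.682 CPM. Bhlhe40, a transcription factor of effector T cells, averaged 1236 ± 29.9, 374 ± 58.7 and 191 ± 22.9 CPM, and Hilpda, a lipid droplet protein, 84.6 ± 12.1, 25.6 ± 2.86 and 11.7 ± 2.30 CPM. By the edgeR test P4ha2 and Stc2 were lower in Tfh5 than TfhA. Bhlhe40 and Hilpda were lower in TfhA than Th1, as was Mxi1, a MYC antagonist (log2 fold change -1.40 ± 0.10). The 8 genes called higher in Tfh5 than TfhA included Plod2, Rbpj and Mxi1. Their log2 fold changes were 1.76 ± 0.11, 0.93 ± 0.11 and 0.27 ± 0.09. Plod2 averaged 147, 88.2 and 299 CPM in Th1, TfhA and Tfh5, and Rbpj 390, 160 and 303 CPM.

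Of 17 tested other isoforms and steps around glycolysis, 6 were lower and 3 higher in Tfh5 than TfhA, 4 and 4 in TfhA against Th1, and 6 and 7 in Tfh5 against Th1. Of all tested genes, 57.5%, 44.8% and 64.6% passed in these comparisons in either direction. Bsg, the chaperone of the lactate transporters, fell at both steps, as Slc16a3 did but Slc16a1 did not, averaging 949 ± 77.2, 481 ± 75.6 and 231 ± 7.65 CPM, and Pgm1, which links glucose to glycogen and is in the hypoxia list as well, averaged 229.5 ± 29.3, 144 ± 17.5 and 46.8 ± 1.63 CPM. Ldhd, a mitochondrial D-lactate dehydrogenase, went the other way, from 0.524 ± 0.301 CPM in TfhA to 7.87 ± 1.82 CPM in Tfh5. In the pentose phosphate pathway, which branches off glycolysis, 6 of 10 genes were lower and 2 higher in Tfh5 than TfhA, 3 lower and 2 higher in TfhA than Th1 and 4 lower and 1 higher in Tfh5 than Th1. Among all tested genes the shares called lower were 30.1%, 21.6% and 33%. Tkt, the transketolase gene of this pathway, averaged 429 ± 69.6, 345 ± 35.9 and 154 ± 15.6 CPM.

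Of 11 pyruvate dehydrogenase genes and regulators, 3 were lower and 2 higher in Tfh5 than TfhA, 1 was higher and 10 did not pass in TfhA against Th1, and 2 were lower and 3 higher in Tfh5 than Th1. Of all tested genes, 57.5%, 44.8% and 64.6% passed in these comparisons in either direction. Pdk2, another kinase of pyruvate dehydrogenase, averaged 6.94 ± 1.19 CPM in TfhA and 15.0 ± 2.06 CPM in Tfh5, opposite to Pdk1. Pdk3, a more abundant one, averaged 203 ± 17.9, 203 ± 22.9 and 138 ± 11.8 CPM in Th1, TfhA and Tfh5. Like Pdk1, it was lower in Tfh5 than TfhA (log2 fold change -0.56 ± 0.10). Of 13 other HIF pathway regulators, 6 were lower and 3 higher in Tfh5 than TfhA, 1 lower and 2 higher in TfhA than Th1, and 5 lower and 2 higher in Tfh5 than Th1. The same shares of all tested genes apply to this list. Cited2, which competes with HIF-1 for its coactivators, averaged 53.3 ± 5.89 CPM in Th1, 155 ± 20.5 CPM in TfhA and 144 ± 11.8 CPM in Tfh5.

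Among 19 glucose-sensing and mTORC1 genes, 5 were lower and 6 higher in Tfh5 than TfhA, 3 lower and 7 higher in TfhA than Th1, and 5 lower and 5 higher in Tfh5 than Th1. Of all tested genes, 57.5%, 44.8% and 64.6% passed in these comparisons in either direction. Txnip, which restrains glucose uptake, averaged 234 ± 16.6, 295 ± 26.6 and 644 ± 72.3 CPM, and Sesn1, an inhibitor of mTORC1, 12 ± 1.46, 29.0 ± 2.67 and 111 ± 8.19 CPM. Mycn, a MYC family factor, averaged 28.9 ± 3.04, 5.19 ± 2.24 and 0.128 ± 0.0831 CPM. Txnip and Sesn1 passed as higher, and Mycn as lower, in Tfh5 than TfhA. Sesn2, of the same list, went the other way from Sesn1, at 15.6 ± 1.73, 12.8 ± 2.91 and 6.14 ± 1.83 CPM. It passed as lower in Tfh5 than TfhA (log2 fold change -1.06 ± 0.20).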

How the data were processed

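Per the labels' protocols, libraries were made with the SENSE mRNA-Seq kit from 100 ng RNA. Per the submitters' processing notes, STAR 2.7.2b, featureCounts 1.6.4 and the build mm10 were used; no source used here gives the strand setting or the treatment of reads with several alignments. The files deposited by the authors hold raw whole-number counts per Entrez gene in 14 libraries of 3 groups. Symbols from RefSeq (GRCm38.p6) matched 25275 of 27179 genes; the other 1904 held 1.91% of counts and stayed in the tests.

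All libraries were fitted together in edgeR 4.0.16 (R 4.3.3; filterByExpr, TMM, group means, quasi-likelihood F test, two-sided). Adjusted p-values are Benjamini-Hochberg values over 13075 genes with a threshold of 0.05, and CPM values are TMM-scaled. The biological coefficient of variation was 14.2%. Replicates of a group differed beyond sampling noise (chi-square per degree of freedom 4.15 to 30.6 over 26 pairs), so none was treated as a duplicate. Exon lengths and shared 50-base windows came from the reference annotation (all transcripts of a gene, so a retained intron adds length). Ratio tests added 0.5 to each count. The models were tested on simulated data.

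Alternatives were RLE, upper quartile and total-count scaling, TMM without the 35 genes or without mitochondrial genes, no filter, DESeq2 1.42.0, only the groups compared, a replicate block, a test against a 1.5-fold change, and each library left out. Leaving out together the 3 libraries that stood apart was added after the values were seen. The 35 genes and all lists were chosen with earlier results of these data known. All 35 genes were named. From other lists, named genes came from the up to 4 largest changes that passed per comparison. They had a mean of 5 CPM or more in one of the groups. Of cell type markers, those above 5 CPM were named. Markers at 0 or under 2 CPM, Ifng, Il17a, Pfkfb2 and Plod2 were named beside this rule. A marker of the fixed lists is not reported here.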

Additional observations from a re-analysis of the deposited data

Results flagged for a closer look

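In each group of each gene, the highest or lowest library was set against the spread of the others as its gap to the nearest library divided by the range of the group (Dixon's ratio). Of 105 groups, 12 passed the 95% critical value, and chance passes about 1 in 20. Th1 replicate 1 accounted for 8 of them. It was the highest Th1 library for Gpi1 (679 CPM, ratio 0.761), Aldoa (3599 CPM, ratio 0.730), Tpi1 (1119 CPM, ratio 0.794), Eno1 (803 CPM, ratio 0.815), Pkm (1579 CPM, ratio 0.772) and Slc16a3 (246 CPM, ratio 0.777), and the lowest for Hif1a (2320.1 CPM, ratio 0.741) and Bnip3l (131 CPM, ratio 0.758). Its mitochondrial share of 4.46% was also the lowest of the Th1 libraries, and the part of this in its values was not tested.

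TfhA replicate 5 was lowest in its group for Gpi1 (290.4 CPM, ratio 0.887), and TfhA replicate 4 highest for Vegfa (43.4 CPM, ratio 0.896). Tfh5 replicate 1 was lowest for Slc2a1 (29.8 CPM, ratio 0.806). Tfh5 replicate 4 was highest for Pgam1 (1.71 CPM, ratio 0.722), a gene of few counts.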

How the results depend on the processing

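No result reversed. Against a 1.5-fold change, 26.4%, 13.3% and 32.3% of all genes passed in Tfh5 minus TfhA, TfhA minus Th1 and Tfh5 minus Th1; 19 of the 35 genes were then lower in Tfh5 than TfhA, 6 passed in TfhA minus Th1 (6 lower, 0 higher), and 0 were higher in Tfh5 than Th1. Leaving out each library in turn gave 0 to 1 genes higher in Tfh5 than TfhA (2 without the 3 libraries that stood apart), a median log2 fold change of -1.55 to -1.26 for Tfh5 minus Th1, and 0 to 7, 0 to 4 and 3 to 7 ratios passing in Tfh5 minus TfhA, TfhA minus Th1 and Tfh5 minus Th1. With mitochondrial genes left out of the total, the 35 genes held 1.62% of Th1 and 0.789% of Tfh5 counts. The replicate block gave 26 genes lower in Tfh5 than TfhA, 20 lower in TfhA than Th1 and 29 lower in Tfh5 than Th1. Of all genes, 55.5%, 42.2% and 63.4% passed with the block. Same-numbered libraries correlated at -0.0896 to 0.218 over 13 pairs, and 4 of 14 were closest to their own number, so the numbers were not treated as pairs. Under the block P4ha1 (Tfh5 minus TfhA, adjusted p = 0.0592), Bnip3 and Egln1 (TfhA minus Th1, 0.0513 and 0.0585), and Egln3 and Mif (second against first step, 0.0543 and 0.105) no longer passed. The paired exact test of 4 shared numbers cannot go below p = 0.125. Genes of few counts, such as Pgam1 and Pfkfb4, have wide errors: at this depth Pgam1 passed in Tfh5 minus Th1 only, and Pfkfb4 in no comparison.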
